A study of Mus musculus with 2 samples.

Results

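Interferon-stimulated genes are the genes that cells switch on when interferons reach them, and 43 of them were followed here in 2 populations of splenic CD8 T cells. The genes were taken by symbol, from a list of known members and not by a threshold on these arrays, through every probe that carries the gene's symbol or an older alias in either array file. Of the 43 genes, 41 had a probe (65 probes in all), 40 passed the filter on dim signals, and these 40 stand among 21898 genes tested. Ifi44 had a probe that was not well above background on array 1 and was not tested, and no probe carried the name of Xaf1 or Dtx3l.

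CD8+CD122+ and CD8+CD122- cells came by sorting from spleens of the C57BL/6 strain. CD122 is a receptor chain that interleukin 2 and interleukin 15 share, and the series names the CD8+CD122+ cells regulatory. Their amplified messenger RNA was compared on 2 two-colour Agilent arrays, each of which received both populations. On array 1 CD8+CD122+ RNA carried Cy5 and CD8+CD122- RNA Cy3, and on array 2, a second trial, the dyes were exchanged. The labels give neither age, sex, number of mice nor pooling, nor do they say if other mice were taken for the second trial. The error measured is therefore the spread between these 2 arrays, and how much of it is technical was not tested. Erythroid markers summed to 1674 (CD8+CD122+) and 1576 (CD8+CD122-) on array 1, but to 5321 and 4646 on array 2. A probe of Xist, described below, went from log2 levels of 6.40 and 6.37 to 10.58 and 9.67, while its brightest kept probe changed less. Whether the mice of the trials account for these gaps was not tested. The cells had received no treatment that the labels name, so the levels are those of cells taken from the spleen.

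Type I interferons bind the receptor of IFNAR1 and IFNAR2, whose kinases activate STAT proteins. A complex that holds STAT2 and IRF9 then binds a DNA element whose core repeats GAAA after a short gap. Interferon gamma binds IFNGR1 and IFNGR2 and acts through elements such as TTCNNNGAA and through IRF1. Many target genes answer to both kinds of interferon, while the immunity-related GTPases and the guanylate-binding proteins are known above all as targets of interferon gamma.

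The core element was looked for in the promoters of the RefSeq promoter table (GRCm38.p6), each running from 250 bases before to 50 bases after a gene's start. The table held 33 of the 43 genes. The core, searched as GAAA, any 2 bases and GAAA again on both strands, occurred in promoters of 18 of these 33 (54.5%), against 3.99% of all 27025 genes in the table. TTCNNNGAA occurred for 10 of the 33 (30.3%), against 9.55% of all genes. The 2 elements were counted separately, overlaps included, and a match is a description of the letters and not proof of a site. The stretches of 60 bases below show the match, in capitals, for genes that were lower in CD8+CD122+ cells on both arrays (Igtp, Irgm1, Gbp2, Isg15 and Ifit1), the gene with the highest ratio (Gbp3) and 2 genes with ratios near 0 (Ifitm2 and Rsad2). All lie upstream of the start and read 5′ to 3′ along the gene's strand.
Igtp, chr11:58199496-58199555, plus strand: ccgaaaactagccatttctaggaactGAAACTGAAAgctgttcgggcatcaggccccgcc
Irgm1, chr11:48871421-48871480, minus strand: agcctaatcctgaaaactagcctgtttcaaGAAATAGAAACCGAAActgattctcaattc
Gbp2, chr3:142620579-142620638, plus strand: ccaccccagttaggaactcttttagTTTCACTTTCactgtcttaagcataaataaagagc
Gbp3, chr3:142559977-142560036, plus strand: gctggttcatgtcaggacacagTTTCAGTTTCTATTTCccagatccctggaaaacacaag
Isg15, chr4:156200856-156200915, minus strand: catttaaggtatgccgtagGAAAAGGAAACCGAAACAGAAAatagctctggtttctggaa
Ifit1, chr19:34640769-34640828, plus strand: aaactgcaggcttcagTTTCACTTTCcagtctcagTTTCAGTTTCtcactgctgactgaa
Ifitm2, chr7:140955973-140956032, minus strand: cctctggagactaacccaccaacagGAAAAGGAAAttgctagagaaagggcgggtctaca
Rsad2, chr12:26456538-26456597, minus strand: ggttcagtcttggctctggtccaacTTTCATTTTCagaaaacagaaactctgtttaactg
The first match began 34 bases before the start of Igtp, 30 before that of Irgm1, 59 before Gbp2, 45 before Gbp3, 78 before Isg15, 104 before Ifit1, 46 before Ifitm2 and 120 before Rsad2. Isg15 held 3 overlapping matches, and Irgm1, Gbp3 and Ifit1 held 2 each. The element was thus present in genes with low, high and near-zero ratios alike. Tested genes with the element (18) had a median log2 ratio of -0.06, those without it in the table (12) of -0.24, and those with no promoter entry (10) of -0.44.

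Most interferon-stimulated genes were lower in CD8+CD122+ than in CD8+CD122- cells, by modest amounts and far more on array 2 than on array 1. Ratios are given on the log2 scale throughout, with CD8+CD122+ in the numerator, which is opposite to the sign used in the series' own value table. Of the 40 tested, 22 (55%) were lower on both arrays, where 24.1% of all genes tested were. A further 6 (15%) were higher on both, against 29.2% of all genes, and 12 had opposite signs, against 46.8%. The median log2 ratio was -0.25 (-0.07 on array 1 and -0.37 on array 2), against 0.01 over all genes (0.01 and 0.00). The sign on array 1 depends on the normalisation: with median centring in place of loess the members' medians were 0.12 on array 1 and -0.68 on array 2, and 15 were lower on both arrays, against 13% of all genes. Where all 4 signals were well above background, the lowest mean was -1.12 (Igtp), and the highest was 0.46 (Gbp3). Iigp1 had -1.26, but its CD8+CD122+ signal on array 1 was not well above background, so that it was kept through CD8+CD122- cells alone and its ratio is not exact; 14 of the 40 lay within 0.1 of 0.

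**Figure D1:**
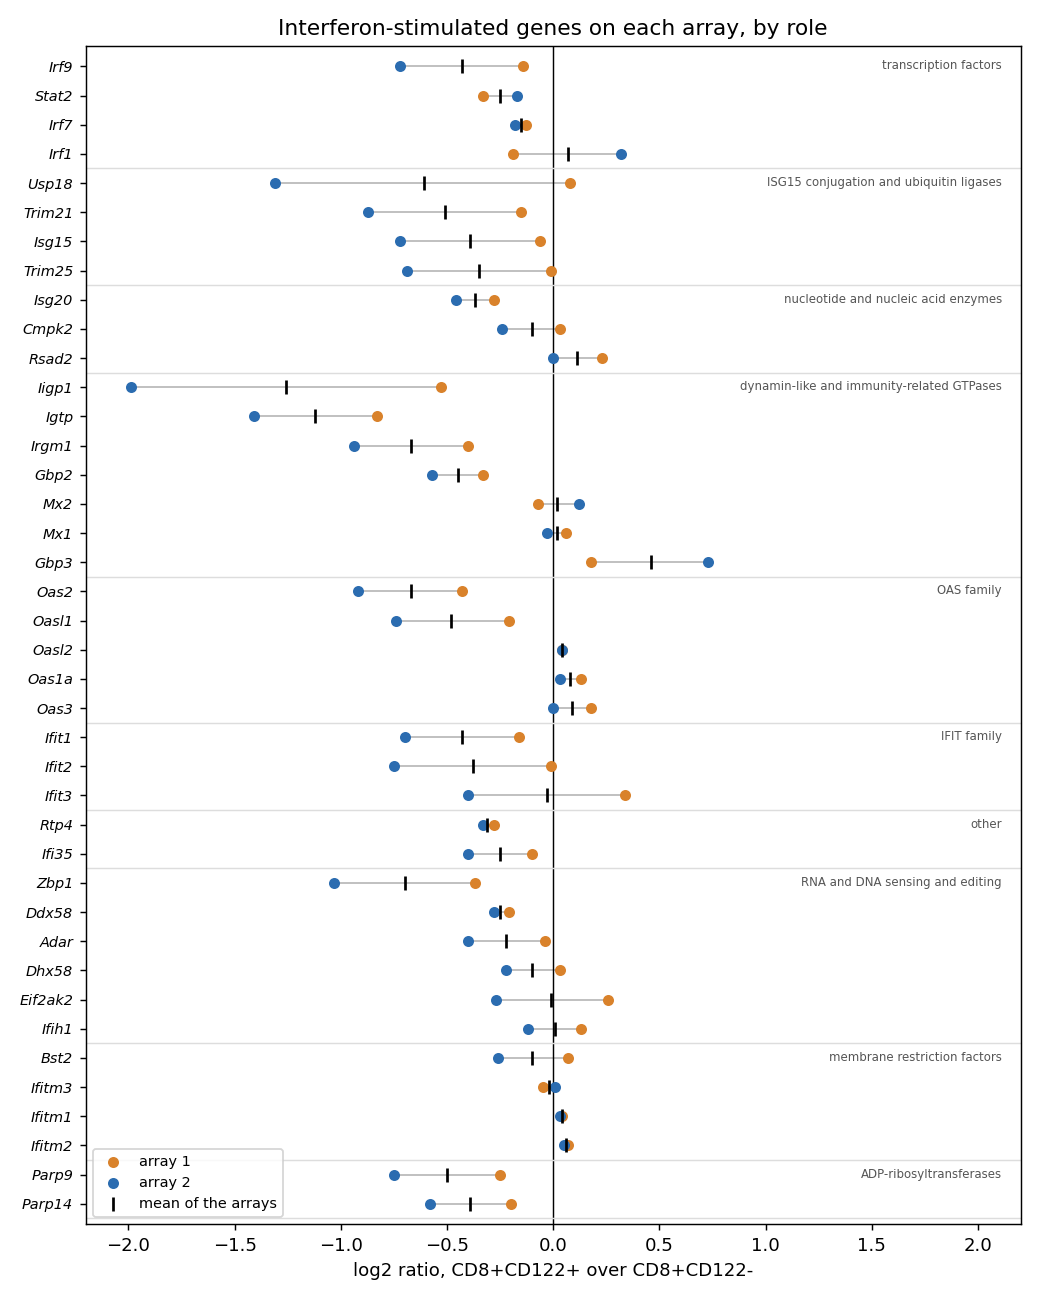
Log2 ratio of CD8+CD122+ over CD8+CD122- for each of the 40 tested genes (rows, grouped by role) on array 1 (orange) and array 2 (blue), with the mean of both arrays as a black bar. Most blue points lie to the left of the orange ones, and Iigp1 (-0.53 and -1.99) and Igtp (-0.83 and -1.41) lie furthest left.

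No interferon-stimulated gene passed the test for a single gene. limma called 0 of the 40 at a Benjamini-Hochberg adjusted p under 0.05, as it called 0% of all genes, and the lowest adjusted p among the 40 was 0.614 (Igtp). At an unadjusted p under 0.05 it found 9 of the 40, all of them lower (Ddx58, Gbp2, Igtp, Irgm1, Isg20, Oas2, Rtp4, Stat2 and Zbp1), against 6.37% of all genes. With 2 arrays the test has 1 residual degree of freedom of its own. No gene of the 40 was 2-fold lower on both arrays (0.105% of all genes were), and none was 2-fold higher on both (0.311%). At the smaller size of 0.3 on the log2 scale on each array, 6, Iigp1 among them, were lower (15%, against 1.66% of all genes) and 0 higher (against 1.74%).

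Immunity-related GTPases take part in the defence of cells against intracellular parasites that live in vacuoles. Igtp, also known as Irgm3, had normalised intensities of 1051 in CD8+CD122+ and 1872 in CD8+CD122- cells on array 1, and of 1638 and 4361 on array 2. Both values of CD8+CD122+ cells were below both of CD8+CD122- cells. The log2 ratio was -0.83 on array 1 and -1.41 on array 2, a mean of -1.12 ± 0.41 (SD, n = 2 arrays, as below; 2.18-fold lower; limma adjusted p 0.614). Here and below, intensities are on a linear scale after loess and a scaling of average brightness between the arrays, and they include the offset of 50, which shrinks the ratios of dim genes.

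Iigp1, an effector GTPase of the same family, was dim. Its intensities were 65.1 in CD8+CD122+ and 94.1 in CD8+CD122- cells on array 1, and 80.9 and 321 on array 2. The value of CD8+CD122- cells on array 2 stood apart from the other 3, and CD8+CD122+ cells on array 1 were not well above background. The log2 ratios of -0.53 and -1.99 gave a mean of -1.26 ± 1.03 (limma adjusted p 0.839), with a 95% confidence interval from -2.72 to 0.20. Irgm1, a regulator of these GTPases and of autophagy, measured 342 against 452 on array 1 and 334 against 641 on array 2 (CD8+CD122+ against CD8+CD122-). Its log2 ratio was -0.67 ± 0.38 (-0.40 and -0.94; limma adjusted p 0.737), and its other probe above background gave -0.53. In Irgm1, CD8+CD122+ cells had about the same level on both arrays, and CD8+CD122- cells were above them on each.

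Among the guanylate-binding proteins, large GTPases that assemble on pathogen membranes, Gbp2 and Gbp3 lay on opposite sides. Gbp2 measured 657 in CD8+CD122+ and 824 in CD8+CD122- cells on array 1, and 667 and 990 on array 2, a log2 ratio of -0.45 ± 0.17 (limma adjusted p 0.677). Gbp3 measured 346 against 305 on array 1 and 795 against 478 on array 2, a ratio of 0.46 ± 0.39 (0.18 and 0.73; adjusted p 0.861). Gbp3 was therefore on each array higher in CD8+CD122+ cells, but its level on array 2 exceeded that on array 1 in both populations, and the populations' ranges overlapped. Its only probe is named Gbp3 in one array file and Gbp4 in the other, and its accession is that of Gbp3. The dynamin-like GTPases Mx1 and Mx2, antiviral proteins of which C57BL/6 mice are known to lack functional forms, had ratios of 0.02 ± 0.07 and 0.02 ± 0.13, with opposite signs on the arrays.

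**Figure D2:**
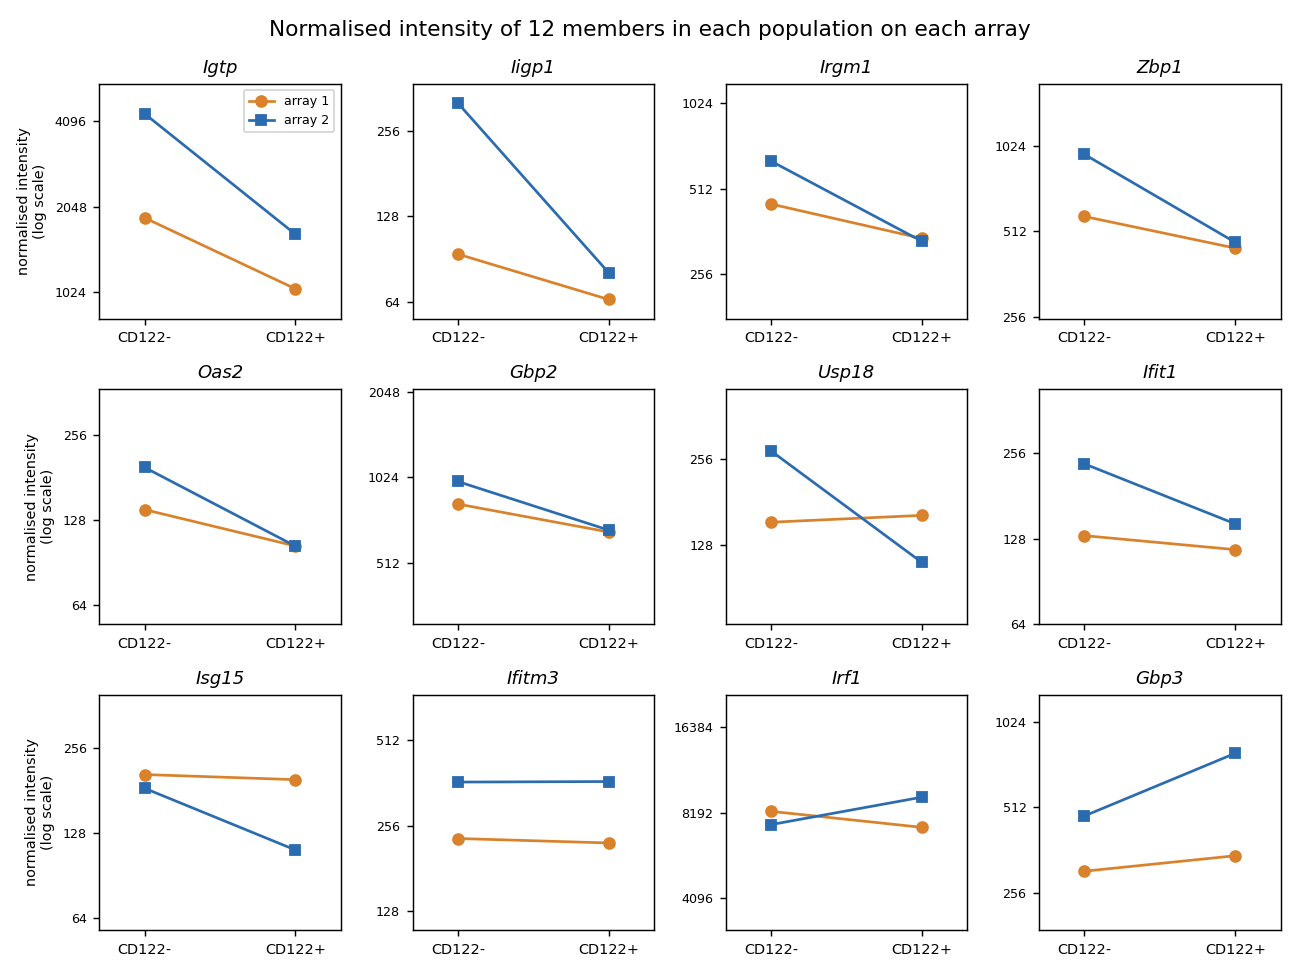
Normalised intensity (log scale, same span in every panel) of 12 interferon-stimulated genes in CD8+CD122- and CD8+CD122+ cells, with a line for array 1 (orange circles) and array 2 (blue squares). For Irgm1, Zbp1, Oas2 and Gbp2 the lines meet in CD8+CD122+ cells and part in CD8+CD122- cells, while Ifitm3 is flat on both arrays and Gbp3 slopes upward.

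Sensors and editors of nucleic acids were lower or near 0. Zbp1, a sensor of Z-form nucleic acids that can start necroptosis, measured 447 in CD8+CD122+ and 578 in CD8+CD122- cells on array 1, and 468 and 957 on array 2. The 2 populations did not overlap, and the log2 ratio was -0.70 ± 0.47 (-0.37 and -1.03; limma adjusted p 0.783). Ddx58, which encodes the RNA sensor RIG-I, had the smaller but even ratio of -0.25 ± 0.05 (-0.21 and -0.28), and its other 2 probes above background reached -0.08 at the highest. Adar, which edits adenosine in double-stranded RNA, gave -0.04 and -0.40, and a second kept probe of Adar gave -0.35. Dhx58, the RIG-I-like protein LGP2, measured 181 against 178 on array 1 and 142 against 166 on array 2 (CD8+CD122+ against CD8+CD122-), a log2 ratio of -0.10 ± 0.18 (0.03 and -0.22; limma adjusted p 0.928). Its other probe gave 0.00, so that its direction is not settled. Ifih1, the sensor MDA5, and Eif2ak2, the kinase PKR, had means of 0.01 ± 0.18 and -0.01 ± 0.38 and opposite signs on the arrays.

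The OAS family, whose enzymes make the 2'-5'-linked adenylates that activate RNase L, was split. Oas2 measured 104 against 139 on array 1 and 103 against 196 on array 2 (CD8+CD122+ against CD8+CD122-), a log2 ratio of -0.67 ± 0.35 (-0.43 and -0.92; limma adjusted p 0.713). Oasl1, a family member without synthase activity, had -0.48 ± 0.38 with intensities of 75.1 and 75.4 in CD8+CD122+ cells against 86.6 and 126 in CD8+CD122- cells. The remaining members Oas1a (0.08 ± 0.08), Oas3 (0.09 ± 0.13) and Oasl2 (0.04 ± 0.00; limma adjusted p 0.942) were near 0. Oasl2 measured 110.4 against 107 and 122 against 119. Its second probe gave a mean of -0.06 with opposite signs on the arrays (0.28 on array 1 and -0.40 on array 2). These genes resemble each other in sequence, so the share of each in its probe's signal is uncertain.

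Of the IFIT proteins, which bind foreign RNA ends and hold back their translation, 3 were tested and all 3 were lower on array 2, as were 31 of the 40 genes and 49.1% of all genes. Ifit1 measured 117 against 131 on array 1 and 144 against 235 on array 2, a log2 ratio of -0.43 ± 0.38. Ifit2 gave -0.01 and -0.75 (its other probe had a mean of -0.05), and Ifit3 0.34 and -0.40. The sign of Ifit3 was opposite on the arrays, and its spread of 0.52 exceeded its mean of -0.03.

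Genes of the ISG15 system were also lower on array 2. Isg15 encodes a ubiquitin-like protein that is attached to other proteins in the interferon response. It measured 197 against 206 on array 1 and 111 against 184 on array 2, a ratio of -0.39 ± 0.47. Usp18, the protease that removes ISG15 and restrains the type I receptor, had the second largest gap between the arrays. Its intensities were 162 against 154 on array 1 and 111 against 274 on array 2, and its log2 ratios 0.08 and -1.31 (-0.61 ± 0.98; limma adjusted p 0.911). The ubiquitin ligases Trim21, which is also a receptor for antibody inside cells, and Trim25, which modifies RIG-I, had -0.51 ± 0.51 and -0.35 ± 0.48, and the other probe of Trim25 gave -0.03. Both were lower mainly on array 2 (-0.87 and -0.69, against -0.15 and -0.01 on array 1).

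Transcription factors of the response showed small ratios. Irf9, the DNA-binding subunit of the type I complex, had -0.43 ± 0.41, its partner Stat2 -0.25 ± 0.12 and Irf7, the amplifier of type I interferon genes, -0.15 ± 0.04, and each was negative on both arrays, while the other probe of Irf9 gave -0.17. Irf1, the factor downstream of interferon gamma, was bright at 7277 in CD8+CD122+ and 8286 in CD8+CD122- cells on array 1 and 9300 and 7441 on array 2, and its log2 ratios of -0.19 and 0.32 differed in sign. Parp9 and Parp14, ADP-ribosyltransferases of the response, had -0.50 ± 0.36 and -0.39 ± 0.27. Parp14 measured 740.2 against 850 on array 1 and 872 against 1300.2 on array 2 (limma adjusted p 0.811), but its other 2 probes gave 0.02 and 0.06.

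Membrane proteins that block virus entry or release had ratios near 0. Ifitm1, Ifitm2 and Ifitm3, which hinder fusion of viruses with the cell, had 0.04 ± 0.01, 0.06 ± 0.01 and -0.02 ± 0.04. Their 95% confidence intervals reached from -0.22 at the lowest to 0.25 at the highest. Bst2, the tether of budding virus, gave 0.07 and -0.26. Of the remaining genes, the exonuclease gene Isg20 (-0.37 ± 0.13, and -0.17 by its other probe), the chaperone gene Rtp4 (-0.31 ± 0.03) and Ifi35 (-0.25 ± 0.21) were lower on both arrays. Rsad2, the antiviral enzyme viperin, was dim at 93.9 against 80.3 on array 1 and 119 against 119 on array 2 (0.11 ± 0.16; limma adjusted p 0.921), and its other probes reached -0.02. Its neighbour in nucleotide metabolism, Cmpk2, measured 104 against 101 and 95.6 against 113 (-0.10 ± 0.19; limma adjusted p 0.929), with 0.00 by its other probe. Both means were smaller than their SDs.

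The ratios of these genes varied between the arrays, as did those of other genes of the pathway. The median SD between the arrays was 0.25 for the 40 and also 0.25 for 74 further pathway genes, against 0.08 for all genes (95th percentile 0.49), and 31 of the 40 exceeded that 0.08. The ratio was lower on array 2 than on array 1 for 35 of 40, against 53.6% of all genes. Across the 40 genes, which are not independent replicates and share both hybridisations, array 1 and array 2 correlated with a Pearson r of 0.622 and a Spearman rho of 0.576, against 0.712 and 0.541 across the 74 pathway genes and 0.406 and 0.102 across all genes. In 14 of the 40, Iigp1 among them, both intensities of CD8+CD122+ cells were below both of CD8+CD122- cells, against 10.1% of all genes. In 1 (Ifitm2) both were above, against 9.91%.

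**Figure D3:**
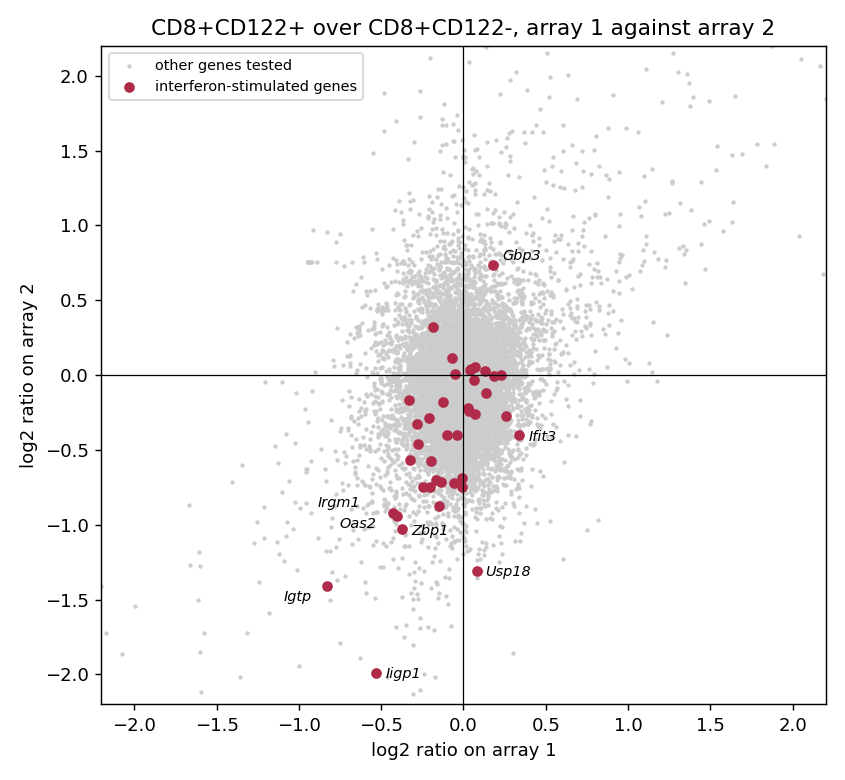
Log2 ratio of CD8+CD122+ over CD8+CD122- on array 1 (horizontal) and array 2 (vertical) for the 40 interferon-stimulated genes (red) over all other genes tested (grey), with axes ending at 2.2, beyond which lie 50 other genes and no red point. Red points gather in the lower left and stretch downward, with Usp18 low on array 2 alone.

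By the medians of the normalised levels, the gap between the arrays lay mainly in CD8+CD122- cells. That division between the populations rests on the scaling of average brightness between the arrays, and other scalings were not tested. From array 1 to array 2 the normalised level of the 40 genes was higher by a median of 0.44 (log2) in CD8+CD122- cells. In CD8+CD122+ cells it was higher by 0.06, against -0.02 and -0.03 over all genes, which the normalisation holds near 0. The share of all probes well above background rose from 69.5% to 83.4% in CD8+CD122- cells, and from 76.4% to 80.2% in CD8+CD122+ cells. In CD8+CD122- cells 34 of the 40 were higher on array 2 (47.6% of all genes were), and in CD8+CD122+ cells 23 were (45.3%). Igtp, for example, measured 1872 on array 1 and 4361 on array 2 in CD8+CD122- cells, and 1051 and 1638 in CD8+CD122+ cells. Some genes changed more in CD8+CD122+ than in CD8+CD122- cells, such as Isg15 (-0.82 and -0.16) and Bst2 (-0.70 and -0.37). The trial, the scan and the dye carried by each population all differ between the arrays, so they cannot be told apart. The shift in levels and the difference in ratios are 1 measurement and not 2.

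Ligands, receptors and signalling genes of the pathway were measured on the same arrays, from a list of 84 further genes of which 74 were tested. limma called 0 of the 74 (0% of all genes), with 14 at an unadjusted p under 0.05 against 6.37% of all genes. Of the 74, 32 were lower on both arrays (24.1% of all genes) and 14 higher (29.2%), with a median log2 ratio of -0.06. At 0.5 or more on each array, 5 were lower (0.543% of all genes) and 5 higher (0.9%).

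Some interferon gamma targets of this list follow, most of them picked after their values were seen, so their tally is not a result. The T cell GTPase gene Tgtp1 had -1.47 ± 0.67 (498 against 996 and 463 against 1780; limma adjusted p 0.666), although a further probe gave -0.07. The peptide transporter genes Tap1 and Tap2, which load MHC class I, had -0.70 ± 0.21 (183 against 268, then 244 against 440; limma adjusted p 0.586) and -0.67 ± 0.10 (524 against 792, then 514 against 856; limma adjusted p 0.533). Irgm2 (-1.12 ± 1.24), Gbp6 (-0.66 ± 0.25) and Gbp4 (-0.54 ± 0.11) were lower on both arrays as well. So were Psmb9 (-0.66 ± 0.56), Ifi47 (-0.53 ± 0.57) and Psmb8 (-0.50 ± 0.53). The chemokine gene Cxcl10 (1.12 ± 0.93) and the feedback inhibitor gene Socs1 (0.55 ± 0.52) were higher on both arrays. Gbp5 (-0.08 ± 0.06) and Ciita (-0.04 ± 0.02), the master regulator of MHC class II, were near 0, and Cd274, the gene of PD-L1, had opposite signs (-0.27 and 0.69).

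For the receptor of interferon gamma, the brightest probes of its chains lay on opposite sides. Ifngr1, the ligand-binding chain, measured 8742 against 3611 on array 1 and 19915 against 4477 on array 2 (CD8+CD122+ against CD8+CD122-), a log2 ratio of 1.71 ± 0.62 (limma adjusted p 0.603). Ifngr2, the signalling chain, measured 144 against 459 and 278 against 508, a ratio of -1.27 ± 0.57 (limma adjusted p 0.663). Its other probes reached 0.24, so that the direction of Ifngr2 is not settled. Ifng, the gene of the ligand, was 11.1-fold higher in CD8+CD122+ cells (3.47 ± 0.31; adjusted p 0.312). Its intensities were 2878 against 223 on array 1 and 1123 against 117 on array 2. The suppressor of cytokine signalling Socs3 was also higher, at 3919 against 2375 and 4961 against 2602 (0.83 ± 0.15; limma adjusted p 0.514). So were the phosphatase gene Ptpn2, which acts on JAK and STAT proteins, at 1136 against 746 and 1558 against 910.5 (0.69 ± 0.12; adjusted p 0.537 by limma), and Tdrd7, at 245 against 152 and 278 against 175 (0.68 ± 0.02; adjusted p 0.458 by limma). The type I receptor genes were near 0, with 0.12 for Ifnar1 (0.11 and 0.14) and -0.04 for Ifnar2 (0.35 and -0.43), whose other probe gave 0.31.

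**Figure D4:**
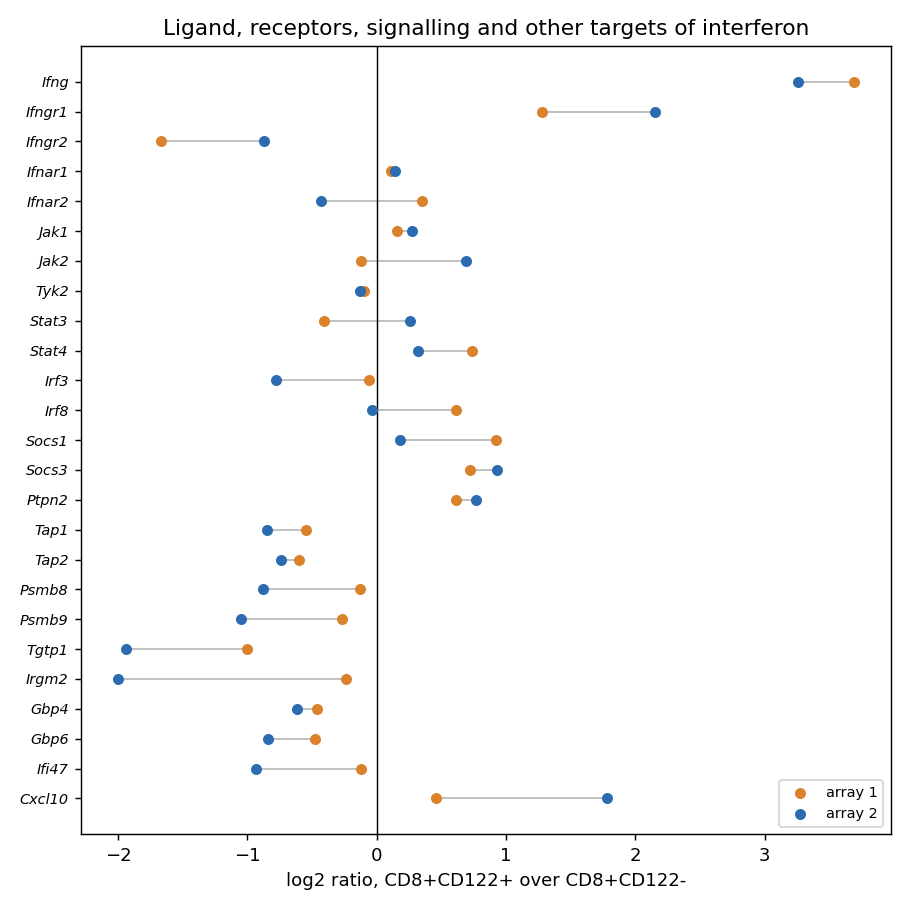
Log2 ratio of CD8+CD122+ over CD8+CD122- on array 1 (orange) and array 2 (blue) for 25 of the 74 tested pathway genes, picked after their values were seen to show ligand, receptors, signalling, feedback and further targets. Ifng and Ifngr1 lie far to the right. Ifngr2 and Tgtp1, each by its brightest probe, lie far to the left, as does Irgm2 on array 2 but not on array 1 (-0.24). Other probes reached 0.24 for Ifngr2 and -0.07 for Tgtp1.

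The sort and the content of other cells were checked on the same scale. Il2rb, the gene of CD122, measured 8236 against 1355 on array 1 and 4855 against 956 on array 2. The CD8 chains Cd8a (-0.61 ± 0.43) and Cd8b1 (-0.67 ± 0.27) were bright in both populations and had ratios as low as many interferon-stimulated genes. Summed over 6 CD8 T cell markers (1 higher and 4 lower on both arrays), intensities were 41780 in CD8+CD122+ and 44260 in CD8+CD122- cells on array 1, and 36262 and 54653 on array 2, and over 3 CD4 T cell markers (0 higher, 0 lower) 244 and 232, then 248 and 262. The summed intensity of 8 plasmacytoid dendritic cell markers (6 tested, 1 higher and 3 lower in CD8+CD122+ cells on both arrays; Spib and Klk1 not tested) was 1035 in CD8+CD122+ and 1042 in CD8+CD122- cells on array 1 and 912 and 1115 on array 2. For 10 B cell markers (all tested, 6 lower and 3 higher on both arrays) it was 1367 and 1434, then 1418 and 1585, and for 10 myeloid markers (7 tested, 5 higher and 0 lower; Itgam, S100a8 and S100a9 not tested) 1573 and 1430, then 1599 and 1494. For 6 NK cell markers (5 tested, Ncr1 not, 3 higher and 0 lower) it was 1128 and 972, then 940 and 863. Tyrobp and Fcer1g count in both the myeloid and the NK list, so these sums are not separate. The largest ratio of the NK list was that of Klra8, at 212 against 90.6 and 135 against 81.8. Erythroid markers (4 of 5 tested, all 4 higher on both arrays in CD8+CD122+ cells) summed to 1674 and 1576 on array 1 and 5321 and 4646 on array 2, so that they too differed between the arrays, in both populations, as did Xist, an RNA of the inactive X chromosome. Its brightest kept probe by mean measured 279 and 265 on array 1 and 533 and 527 on array 2. Its other kept probe went from log2 levels of 6.40 and 6.37 on array 1 to 10.58 and 9.67 on array 2 (CD8+CD122+ and CD8+CD122-), and a probe not well above background on array 1 from 5.81 and 5.77 to 8.65 and 8.07. The part of these differences in the interferon-stimulated genes was not tested, and fewer cells of a type cannot be told apart from less RNA per cell.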

How the data were processed

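Each array file holds the scanner output of 1 two-colour array as deposited: the authors' mean and background intensity of each spot in both dyes, flags, a processed intensity and the log10 of the Cy5 to Cy3 ratio, per the file headers. The authors' series value table holds a log10 ratio with a median of 0 on each array and, set against the scanner ratios, CD8+CD122- over CD8+CD122+. Here intensities were background-corrected with normexp (offset 50) and then loess-normalised array by array (control spots had weight 0), and levels between arrays by Aquantile (limma 3.58.1, R 4.3.3). Spots flagged as outliers by the scanner software were dropped. Probes well above background in the same population on both arrays were kept (30794 of 41174), with 1 probe per gene, the brightest, giving 21898 genes. Probe names were brought up to date through RefSeq symbols, synonyms and accessions (32087 probes, 77.9%), and the file's own name was kept for the others. Well above background were 76.4% and 69.5% of probes (CD8+CD122+ and CD8+CD122-) on array 1 and 80.2% and 83.4% on array 2; 2 arrays limit the precision of every value.

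The ratio of each gene was tested against 0 with limma, moderated over all genes, with Benjamini-Hochberg adjustment at 0.05, after a test of the script on simulated data. limma p-values measure the spread between these 2 arrays only. Members and gene lists were chosen with earlier results of these data known, and nothing is read as independent support from them. All 40 tested genes were described by role; full statistics were given for those 0.3 or more apart the same way on both arrays, for those over 1 apart between the arrays and for those whose probes disagreed in sign, and for pathway genes at 0.5 or more the same way (1 of them is not reported here); other values illustrate a role and were picked after they were seen. Alternatives were the background correction, processed signals, median centring, offset 10, the dim filter, the probe rule, naming by accession, the value table and each array alone.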

Additional observations from a re-analysis of the deposited data

How the results depend on the processing

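The median log2 ratio of the interferon-stimulated genes over both arrays stayed negative under every alternative run. It ran from -0.30 (processed signals and the deposited value table) to -0.17 (mean of all kept probes). With each array left out in turn it ran from -0.37 to -0.07. The value table repeats the ratios of the processed signals, and naming by accession changed no probe of these genes. Neither is therefore a separate check of their ratios. The count lower on both arrays was 22 (24.1% of all genes), but 15 with median centring, where 13% of all genes were lower. It was 23 without a dim filter (24.4% of all genes). With the stricter filter, which drops Iigp1, it was 21 of 39 (24.6%). With 1 array left out, each count is of the kept array alone, and the share of all genes rises as well. Array 1 alone gave 25 lower and array 2 alone 31, against 45.8% and 49.1% of all genes. The count higher on both arrays was 6 (29.2% of all genes), but 1 with median centring (15.1%) and 7 with offset 10 (31.2%). Array 1 alone gave 15 higher and array 2 alone 9, against 54.2% and 50.9% of all genes. Median centring moved the median of all genes by 0.096 on array 1 and -0.128 on array 2. The count 2-fold lower on both arrays, a measure added after seeing the data, was 0, but 1 (Iigp1) with processed signals, with offset 10 and with the value table, and 0 to 4 with 1 array left out. limma called 0 of the interferon-stimulated genes under each setting that has a test. Over all genes it called 7 of 21898 with offset 10 and 0 under the other settings. Among the genes given full statistics, signs reversed for Oasl2 (-0.01 with the mean of all kept probes) and, with 1 array left out, for Dhx58 (from -0.22 to 0.03), Usp18 (from -1.31 to 0.08) and Cmpk2 (from -0.24 to 0.03), each positive on array 1 alone; the cause was not tested. The 12 genes with opposite signs on the arrays, such as Ifit3 and Irf1, have the sign of whichever array is kept. With both arrays kept, Iigp1 ran from -2.65 to -1.03 and Oas2 from -1.18 to -0.56, while Igtp ran from -1.15 to -1.11. Array 1 alone gave -0.53, -0.43 and -0.83 for these 3, and array 2 alone -1.99, -0.92 and -1.41. In 15 genes all 4 intensities were under 200, where the offset shrinks ratios. The tested value, the ratio within an array, already pairs the populations array by array, and no further block is left to add.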
